A study of Mus musculus with 2 samples.

Results

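The 10 genes described here are Trem2, its adaptor Tyrobp, and 8 genes of the disease-associated state of microglia: Apoe, Cst7, Lpl, Spp1, Clec7a, Gpnmb, Cd9 and Lgals3. They were chosen by name, and their rows were found among the 53801 Ensembl identifiers of the count files through the GENCODE M21 symbols. All 10 were present, and all 10 were counted, which here means at least 10 reads in both libraries, as was true of 13445 genes.

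Microglia are the resident macrophages of the brain. TREM2 is a surface receptor for lipids, lipoproteins and dying cells that has no signalling motif of its own and pairs with the adaptor DAP12, the product of Tyrobp, whose ITAM motif recruits the kinase SYK. In mouse models of neurodegeneration, microglia near plaques or damaged myelin lower their homeostatic genes and raise Apoe and Tyrobp in a step that does not need Trem2, and then raise Lpl, Cst7, Spp1, Clec7a, Cd9 and related genes in a step that does.

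RNA-seq was examined from 2 libraries of one group. Each came from the brain of a separate Cx3cr1(CreER/wt) mouse, in which a tamoxifen-inducible Cre takes the place of one Cx3cr1 allele, so that both libraries carry a single working copy of that microglial receptor gene. In the study these mice stand for wild type, and both had received tamoxifen at 75 mg/kg daily for 4 days. Surgery followed 14 days after the first dose, and it was the sham operation that serves as control for occlusion of the middle cerebral artery. The sample titles name sham surgery while the treatment field says none. The labels describe male mice of 8 to 10 weeks, whereas the methods text gives an older range and both sexes. Cells of the operated hemisphere were sorted 3 days after surgery as CD11c-Ly6G-CD11b+CD45low. Libraries from occluded mice were not analysed here, so no comparison of conditions was made and no p-value is given. The 2 libraries show how far these genes differ between samples of the same group, in which the mouse and the library preparation cannot be told apart.

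The libraries held 23381026 and 41142609 counts. A gene with 0 reads could thus have reached 0.128 and 0.0729 counts per 1000000 counts on genes (CPM). Markers of microglia were abundant in both, at a summed 36380 and 45199 CPM over 10 genes. Library 2 stood apart in markers of other cells. The summed level of 10 immature neutrophil markers came to 1778 CPM for library 1 but 32902 CPM for library 2, with Ngp highest, and that of 9 mature neutrophil markers was 3474 and 30648 CPM, with S100a8 highest. Ly6g, whose product the gate excluded, was at 15.4 and 210.5 CPM, a value looked up after the data were seen. The 6 monocyte markers summed to 707 and 3353 CPM, most of it Chil3, the 6 choroid plexus markers to 24.8 and 371 CPM, most of it Ttr, and the 6 basophil and mast cell markers to 0.257 and 169 CPM, most of it Prss34, which had no read in library 1. The 9 border macrophage markers, led by F13a1, went the other way, at 764 and 383 CPM. The other 7 non-microglial lists differed by less or were scarce. Dendritic cell markers summed to 1760 and 2470 CPM, nearly all of it Siglech, a microglial gene as well, and B cell markers, led by Ighm, to 570 and 778 CPM, with Pax5 at 0 in library 1. Astrocyte markers, led by Slc1a3, summed to 226 and 177 CPM, oligodendrocyte lineage markers, led by Mag, to 99.0 and 108 CPM, platelet markers, led by Gp9, to 44.6 and 61.3 CPM, and endothelial markers, led by Pecam1, to 18.6 and 15.7 CPM. T and NK cell markers were at 0 in library 1 and at 0.997 CPM in library 2, with Klrb1c highest and Cd3e and Cd8a at 0 in both. In bulk libraries, fewer cells of a type and less RNA per cell cannot be told apart.

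The genes spanned a wide range of levels. The mean CPM of Apoe, the highest, was 1782-fold that of Gpnmb, the lowest. Their summed share of all counts was 0.846% in the first library and 0.986% in the second. Trem2, Tyrobp, Apoe and Cd9 lay above at least 99.2% of counted genes by mean CPM, whereas Cst7 lay above 50.8% and Gpnmb above 20.4%. The abundant group thus held the receptor, its adaptor, the apolipoprotein and the tetraspanin, and Lgals3, at 93.8%, was the highest of the others.

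**Figure D1:**
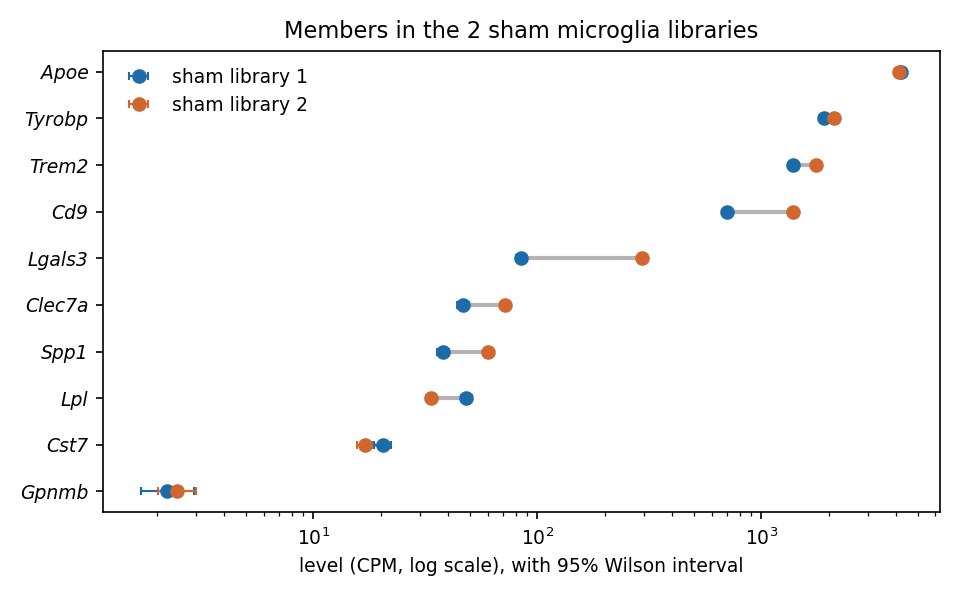
Level of each gene in CPM (log axis) in library 1 (blue) and library 2 (orange), with 95% Wilson intervals that cover counting error only and are mostly smaller than the points. Apoe, Tyrobp, Trem2 and Cd9 lie to the right in both libraries, and the widest gap is that of Lgals3, at 84.3 and 293 CPM.

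The stretches of 200 bases just before the annotated start of transcription are shown for 6 genes, to set the DNA next to the starts beside these unequal levels: the receptor Trem2, Apoe and Gpnmb at the ends of the range, and Cst7, Spp1 and Clec7a in between. They are RefSeq sequences of build GRCm38.p6, read on the strand of the gene. RefSeq windows matched 8 of the 10 genes, all but Tyrobp and Lpl, and those of Cd9 and Lgals3 are not printed because GENCODE places exon bases inside them. Capitals mark matches to GGAAGT, the core bound by PU.1 and other ETS factors, and to TGANTCA. The latter is a looser pattern than the AP-1 site, since its N allows any base.
Trem2, chr17:48346201-48346400, plus strand: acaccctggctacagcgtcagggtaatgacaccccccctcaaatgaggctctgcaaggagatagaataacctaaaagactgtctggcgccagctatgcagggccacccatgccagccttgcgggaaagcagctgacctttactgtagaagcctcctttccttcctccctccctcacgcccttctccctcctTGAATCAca
Apoe, chr7:19699189-19699388, minus strand: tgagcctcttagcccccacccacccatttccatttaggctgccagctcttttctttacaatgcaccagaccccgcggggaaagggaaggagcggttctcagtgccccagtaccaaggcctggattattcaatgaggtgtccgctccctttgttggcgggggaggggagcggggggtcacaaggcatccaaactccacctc
Cst7, chr2:150570215-150570414, plus strand: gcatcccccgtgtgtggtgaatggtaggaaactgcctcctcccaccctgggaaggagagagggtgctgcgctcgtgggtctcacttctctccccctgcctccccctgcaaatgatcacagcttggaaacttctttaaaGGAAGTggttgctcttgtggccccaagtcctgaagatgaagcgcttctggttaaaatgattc
Spp1, chr5:104434911-104435110, plus strand: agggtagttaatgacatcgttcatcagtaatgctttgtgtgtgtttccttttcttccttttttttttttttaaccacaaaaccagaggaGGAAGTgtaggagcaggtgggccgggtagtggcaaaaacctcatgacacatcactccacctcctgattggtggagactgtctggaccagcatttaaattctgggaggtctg
Clec7a, chr6:129472780-129472979, minus strand: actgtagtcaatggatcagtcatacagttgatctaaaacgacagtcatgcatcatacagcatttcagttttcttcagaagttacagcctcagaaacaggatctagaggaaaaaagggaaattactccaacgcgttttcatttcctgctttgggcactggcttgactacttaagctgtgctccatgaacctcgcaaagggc
Gpnmb, chr6:49036318-49036517, plus strand: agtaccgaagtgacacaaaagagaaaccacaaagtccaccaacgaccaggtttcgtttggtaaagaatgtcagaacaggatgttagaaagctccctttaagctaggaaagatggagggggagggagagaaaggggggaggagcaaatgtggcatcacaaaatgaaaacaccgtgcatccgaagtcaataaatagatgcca

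Both strands of the 250 bases before each start were searched for these letters, for the E-box CACGTG, bound by MiT/TFE factors among others, and for the TATA box TATAAA. The Trem2 stretch held TGAATCA at -9, the Cst7 stretch GGAAGT at -62 and the Spp1 stretch GGAAGT at -111, counted from the transcript start to the first base of the match. TGAATCA fits only the looser pattern with N, so it is not called an AP-1 site. Spp1 also had TATAAA at -211, outside the bases shown. Among all 32851 RefSeq windows, GGAAGT was present in 19.7%, TGANTCA in 6.75%, CACGTG in 6.02% and TATAAA in 12.4%. A start inside the Apoe gene had TATAAA on both strands, overlapping each other at -100 and -96, and the other matches did not overlap. No match to these letters was found before the starts of Clec7a, Gpnmb, Cd9 and Lgals3 or before the outermost start of Apoe. These are letters in a sequence and no measure of binding.

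The receptor and its adaptor were both abundant. Trem2 (ENSMUSG00000023992, chr17:48346401-48354147, plus strand) was read 32524 times in library 1 and 72403 times in library 2, which gave 1391 and 1759.8 CPM. Its mean was 1575 ± 261 CPM (SD, n = 2), and library 2 was higher by 0.34 on the log2 scale. Tyrobp (ENSMUSG00000030579, chr7:30413760-30417585, plus strand) was at 1916 and 2113 CPM, with a mean of 2014 ± 139 CPM (SD, n = 2), and its log2 ratio of library 2 to library 1 was 0.14. Both genes were thus somewhat higher in library 2 on this scale, Tyrobp by less, and the log2 ratio of Tyrobp became -0.17 when the summed microglial markers were taken as library size.

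Apoe and Lpl encode lipid handling proteins. Apoe (ENSMUSG00000002985, chr7:19696109-19699188, minus strand), the main apolipoprotein of the brain, had the most reads of the 10, 98512 and 169610. Its levels of 4213 and 4122 CPM were the closest between libraries in CPM relative to their mean of 4168 ± 64.2 CPM (SD, n = 2). The log2 ratio of -0.03 changed sign with other scalings, to 0.23 with TMM. Lpl (ENSMUSG00000015568, chr8:68880491-68907448, plus strand), the lipoprotein lipase, was at 48.2 and 33.5 CPM, a mean of 40.9 ± 10.4 CPM (SD, n = 2). Of the 10 genes it had the lowest log2 ratio, -0.52, with a 95% counting interval from -0.64 to -0.41.

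Among the secreted and lysosomal products, Cst7 and Spp1 were of intermediate level. Cst7 (ENSMUSG00000068129, chr2:150570415-150578944, plus strand) encodes cystatin F, an inhibitor of lysosomal cathepsins, and was at 20.4 and 16.9 CPM, a mean of 18.6 ± 2.43 CPM (SD, n = 2). Its log2 ratio of -0.27 lay at the median of all counted genes and was 0.0076 with DESeq2 size factors. Spp1 (ENSMUSG00000029304, chr5:104435118-104441050, plus strand) encodes osteopontin, a secreted ligand of integrins and CD44, and was at 37.9 and 60.3 CPM, a mean of 49.1 ± 15.8 CPM (SD, n = 2). Library 2 was 1.59-fold higher. On the same strand Spp1 shares 309 exon bases with Gm42793, which had 0 and 6 reads, and reads in shared bases are assigned to neither gene in the default mode of the counter.

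The surface proteins differed widely in level. Clec7a (ENSMUSG00000079293, chr6:129461591-129472779, minus strand) encodes dectin-1, a receptor for beta-glucans that also signals through SYK, and was at 46.7 and 71.5 CPM, a mean of 59.1 ± 17.6 CPM (SD, n = 2), 1.53-fold higher in library 2. Gpnmb (ENSMUSG00000029816, chr6:49036546-49070929, plus strand), a glycoprotein of late endosomes and the cell surface, had 52 and 101 reads, the fewest of the 10. Its levels were 2.22 and 2.45 CPM, and the interval of its log2 ratio, from -0.35 to 0.65, included 0, so that no difference between these libraries was detectable at this depth. The tetraspanin gene Cd9 (ENSMUSG00000030342, chr6:125460266-125494791, minus strand) was at 705 and 1385 CPM, a mean of 1045 ± 481 CPM (SD, n = 2). Cd9 overlaps 2 genes on the opposite strand, Gm26728 with 218 shared exon bases and 35 and 31 reads, and Gm28809 with none shared. The strand setting of the counting is not given in the sources used here.

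Lgals3 differed most between the libraries. It encodes galectin-3, a lectin that binds beta-galactosides and gathers at damaged lysosomes, and lies at chr14:47367751-47386160 on the plus strand (ENSMUSG00000050335). It was read 1970 times in library 1 and 12044 times in library 2. The levels were 84.3 and 293 CPM, a mean of 188 ± 147 CPM (SD, n = 2), and library 2 was 3.47-fold higher. That log2 ratio of 1.80, with an interval from 1.73 to 1.87, exceeded those of 97.6% of counted genes. Galectin-3 is abundant in peripheral myeloid cells as well as in activated microglia, and 10 of 10 immature and 8 of 9 mature neutrophil markers were over 2-fold higher in the same library. Of all counted genes 5.74% were over 2-fold higher there and 25.9% lower. Of the 6 monocyte markers Chil3 and Ly6c2 were over 2-fold higher and Fn1 lower, with a median log2 ratio of 0.03. The part of these cells in the Lgals3 level was not tested.

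Ratios between libraries must be read against the spread of all genes. The median log2 ratio of library 2 to library 1 over the 13445 counted genes was -0.26, and over the 10 genes it was 0.24. By this measure 7 of the 10 were higher in library 2 and 3 lower, although the signs of Apoe, Tyrobp, Gpnmb and Cst7 depended on the scaling. Of all counted genes 60.0% had a lower ratio than Apoe, at -0.03, and 68.3% a lower one than Tyrobp, at 0.14. Above the median of all counted genes, which by definition splits those genes evenly, lay 8 of the 10. Relative to the median of all counted genes the log2 ratio was 0.60 for Trem2, 0.40 for Tyrobp, 0.23 for Apoe, -0.26 for Lpl, 1.24 for Cd9 and 2.06 for Lgals3. Lgals3 was over 2-fold apart, 1 gene of 10, where 31.7% of all counted genes were, 5.74% higher and 25.9% lower in library 2. A count of 1 in 10 is below that background share, so it is no result about the group. Cd9 lay just inside the threshold, at 1.97-fold.

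**Figure D2:**
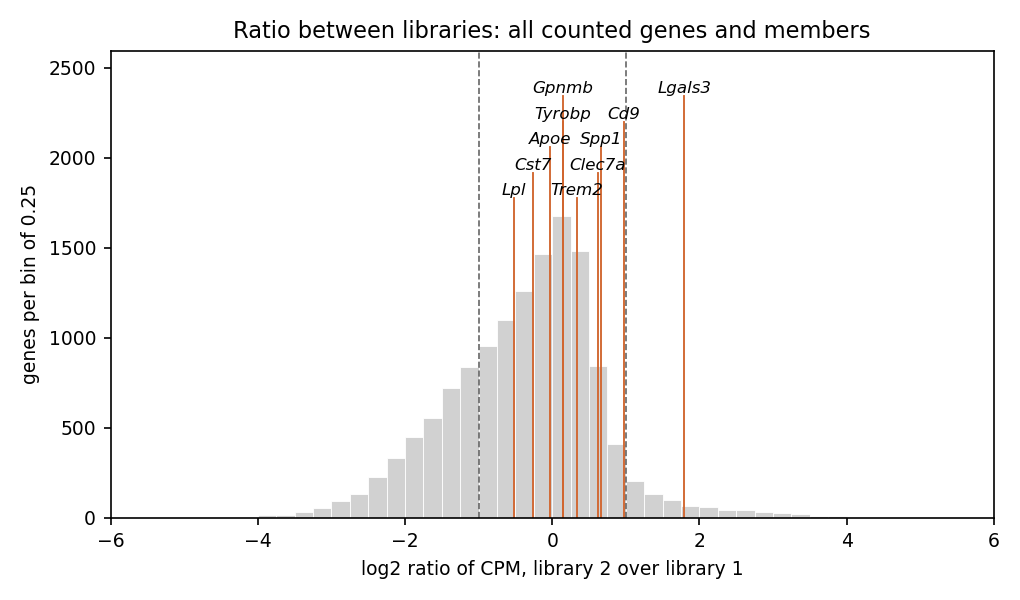
Histogram of the log2 ratio of CPM, library 2 over library 1, for the 13445 counted genes in bins of 0.25 (grey), with the 10 genes as orange lines and 2-fold as dashed lines. Lgals3 at 1.80 is the only one outside the dashed lines, Cd9 at 0.97 lies just inside, and Apoe, Tyrobp, Gpnmb and Cst7 lie close enough to 0 that their sign changed with at least 1 other scaling.

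Other scalings moved which genes passed 2-fold. With TMM library sizes, where 28.3% of counted genes were over 2-fold apart, both Cd9 and Lgals3 passed, with log2 ratios of 1.23 and 2.05. After subtraction of the median of genes of like GC content and transcript length, where 22.4% were over 2-fold apart, the genes that passed were Lgals3 at 1.66 and Trem2 at 1.29, and Cd9 was at 0.86. The adjustment placed Trem2 by its longest transcript in GENCODE M21, which has 4784 bases, whereas its principal transcript has 1088.

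Genes with long transcripts, from 3000 bases up, had lower ratios in library 2 across the whole data set. The median log2 ratio was 0.15 over the 2406 counted genes with a longest transcript of 1000 to 2000 bases, a class that holds Apoe, Spp1, Cd9 and Lgals3. It was -0.48 over the 4404 genes of 3000 to 5000 bases, with Trem2, Lpl and Gpnmb, and -1.004 over the 2638 genes of 5000 bases or more, to which none of the 10 belongs. In the last class 50.3% of genes were over 2-fold lower in library 2, against 10.4% in the class of Apoe and Lgals3. The shorter classes, under 1000 bases with Tyrobp and Cst7 and 2000 to 3000 bases with Clec7a, had medians of -0.06 and 0.03. What separates long from short transcripts in these libraries was not tested.

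**Figure D3:**
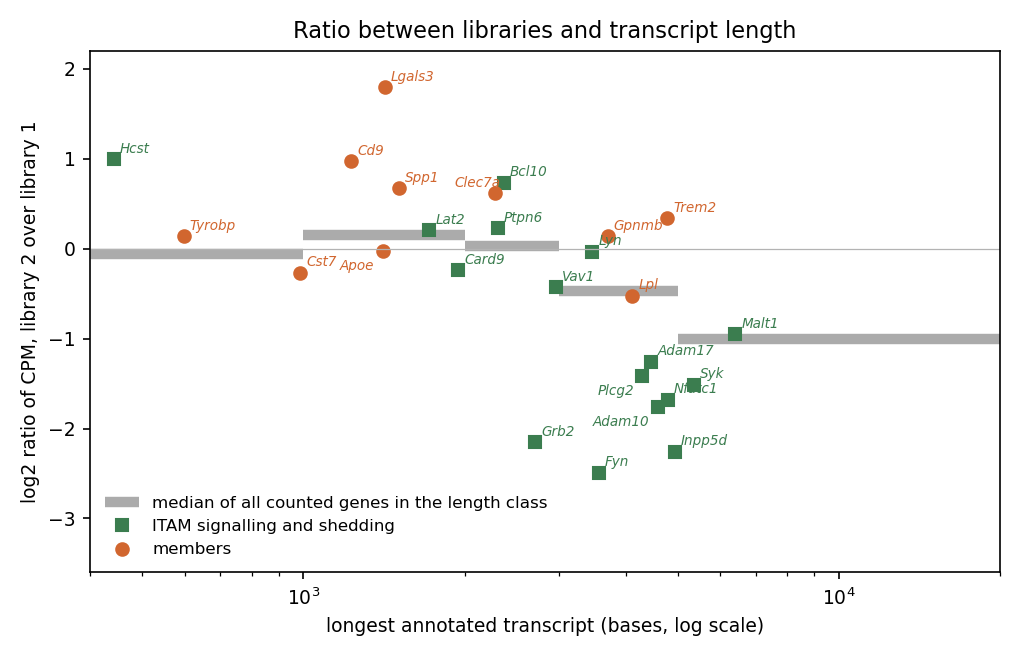
Log2 ratio of CPM, library 2 over library 1, against the longest annotated transcript in bases (log axis) for the 10 genes (orange circles) and 16 genes of ITAM signalling and TREM2 shedding (green squares), with the median of all counted genes in each length class as grey bars. The bars lie between -0.06 and 0.15 up to 3000 bases and fall to -0.48 and -1.004 in the longer classes. The 8 ITAM genes below -1 lie at over 2000 bases, as do Malt1, Lyn, Vav1, Bcl10 and Ptpn6, which are not below -1.

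Levels of different genes were compared per length, as the share of transcripts scaled to 1000000 (TPM). With the merged exons of each gene as its length, Tyrobp came first at 8169.6 and 7260.0 TPM, followed by Apoe at 5605 and 4419 TPM, Cd9 at 981 and 1552 TPM and Trem2 at 799.9 and 815 TPM. Lgals3 was at 129 and 361 TPM and Spp1 at 65.4 and 83.8 TPM. Clec7a, at 50.3 and 62.1 TPM, and Cst7, at 58.7 and 39.3 TPM, overlapped between libraries and could not be ordered. Lpl followed at 13.1 and 7.34 TPM, and Gpnmb was last at 0.971 and 0.864 TPM. All other neighbours in this order were separated in both libraries.

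The order depended on which transcript was taken as the length. With the principal transcript, Trem2 rose to 2645 ± 67.1 TPM and stood above Cd9 at 1521 ± 503 TPM (SD, n = 2 each), and Clec7a rose to 151 ± 24.3 TPM, where it overlapped Lgals3. The mean of Lpl was 10.2 TPM by merged exons, 20.3 TPM by the longest transcript and 18.7 TPM by the principal one. By the longest transcript, Tyrobp and Apoe overlapped, as did Spp1 with Clec7a and Clec7a with Cst7. The quotient of Trem2 to Tyrobp in TPM was 0.0979 and 0.112 by merged exons and 0.376 and 0.432 by the principal transcript. The adaptor exceeded its receptor in both libraries under every length, by an amount that the choice of length set.

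**Figure D4:**
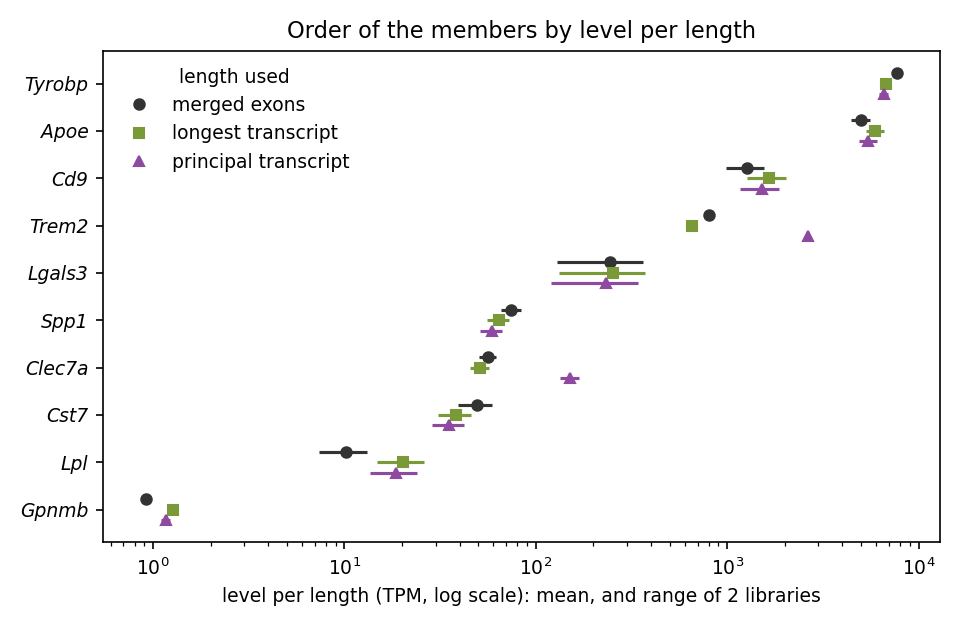
Level per length in TPM (log axis) of each gene, as the mean (symbol) and range (line) of the 2 libraries, with length taken as merged exons (circles), the longest transcript (squares) or the principal transcript (triangles). Trem2 moves from 808 TPM with merged exons to 2645 TPM with the principal transcript and Clec7a from 56.2 to 151 TPM, while Tyrobp and Apoe stay at the top and Gpnmb at the bottom.

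Genes around these 10 were described from 13 further lists of 96 genes, of which 91 were counted. Over 2-fold, 13 (14.3%) were higher and 23 (25.3%) lower in library 2, where 5.74% and 25.9% of all counted genes were. The share that was lower was close to that of all genes. The median log2 ratio was -0.07, and 0.18 with TMM. With microglial markers as library size 8 were higher and 31 lower, or 8.79% and 34.1% against a background of 3.9% and 34.9%. After the adjustment for GC content and length 13 were higher and 9 lower, or 14.3% and 9.89% against 9.7% and 12.7%.

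Downstream of Tyrobp and Clec7a, all 16 genes of ITAM signalling and TREM2 shedding were counted. None was over 2-fold higher and 8 were over 2-fold lower in library 2, where 5.74% and 25.9% of all counted genes were, and the median log2 ratio was -1.10 against -0.26. The phosphatase gene Ptpn6 and the kinase gene Lyn were highest, at means of 643 and 509 TPM. Syk, the kinase that binds the ITAM of DAP12, was at 191 and 67.1 CPM, Plcg2, the phospholipase downstream of it, at 276 and 103 CPM, and Inpp5d, the lipid phosphatase SHIP1 that opposes this signal, at 1113 and 233 CPM. Adam10 and Adam17, proteases that shed TREM2, were at 332 and 97.6 CPM and at 273 and 114 CPM. Fyn, Grb2 and Nfatc1 were the other lower genes, with log2 ratios of -2.49, -2.15 and -1.68. The log2 ratios of Trem2 and Tyrobp, 0.34 and 0.14, were above 0 on the same scale. After the adjustment for GC content and length the median of this list was -0.18. Only 3 genes, Fyn, Grb2 and Adam10, were still over 2-fold lower, where 12.7% of all counted genes were. The adjusted log2 ratio was -0.03 for Syk, 0.13 for Plcg2, -0.72 for Inpp5d, -0.14 for Nfatc1 and -0.80 for Adam17.

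The other receptors of the Trem locus were scarcer than Trem2. Trem1, a receptor of neutrophils and monocytes that also pairs with DAP12, was at 37.2 and 153 CPM, and its neighbour Trem3 at 13.7 and 154 CPM. Both were higher in the library with the higher neutrophil markers, and the part of neutrophil RNA in these levels was not tested. Treml4 was at 9.62 and 3.96 CPM, and Treml1, a platelet receptor, had 18 and 3 reads. Of 4 counted genes in this list of 5, 2 were over 2-fold higher and 1 lower, where 5.74% and 25.9% of all counted genes were. The median log2 ratio was 0.96, against -0.26 over all counted genes.

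**Figure D5:**
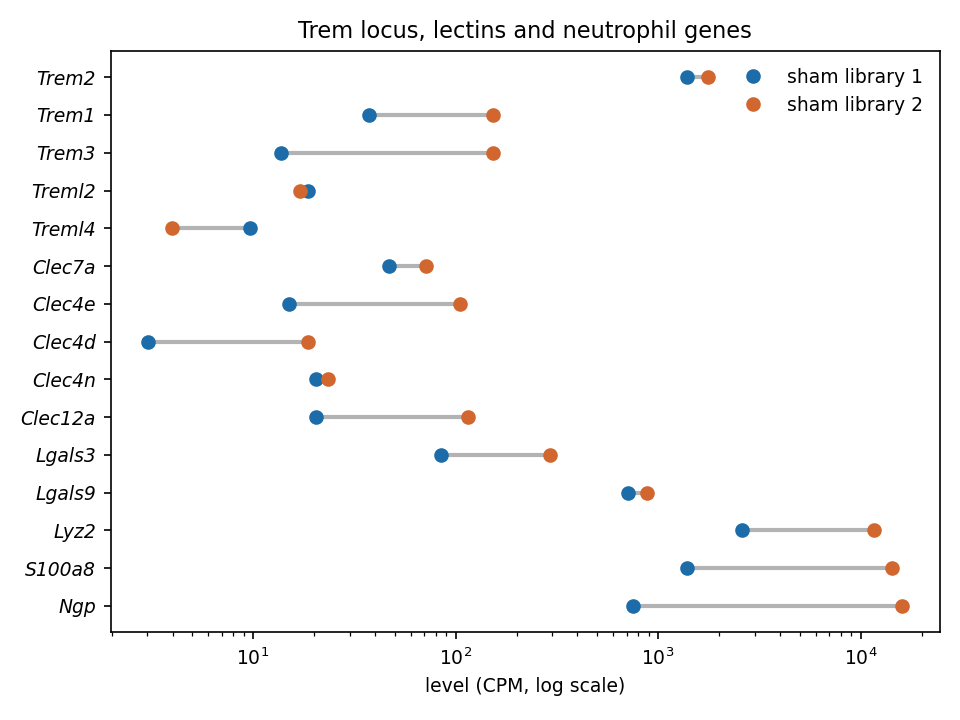
Level in CPM (log axis) in library 1 (blue) and library 2 (orange) of the receptors of the Trem locus, of C-type lectins and galectins and of Lyz2, beside the neutrophil genes S100a8 and Ngp. In library 2 Trem1, Trem3, Clec4d, Clec4e, Clec12a, Lgals3, Lyz2, S100a8 and Ngp lie further to the right. Trem2, Clec7a, Clec4n and Lgals9 lie to the right by less, with log2 ratios of 0.34, 0.62, 0.18 and 0.31. Treml4 and Treml2 lie to the left, at -1.28 and -0.13. What moved these levels was not tested.

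Other receptors that pair with DAP12 were led by Siglech, at 1680 and 2394 CPM, and Cd300c2, at 403 and 503 CPM. Of these 6 genes Cd300ld, at 28.5 and 61.4 CPM, and Pilrb1, at 5.65 and 20.7 CPM, were over 2-fold higher in library 2 and none was lower. Of all counted genes 5.74% were over 2-fold higher and 25.9% lower. The median log2 ratio was 0.60, against -0.26 over all counted genes. C-type lectins other than Clec7a had the highest median of the 13 lists, 2.49 over 5 counted genes of 6. Among those 5, 3 were over 2-fold higher in library 2 and none was lower, beside the same shares of all counted genes. Clec4d was at 3.04 and 18.7 CPM, Clec4e, which encodes the receptor Mincle, at 15.0 and 105 CPM, and Clec12a at 20.4 and 115 CPM. Clec4n, the highest by mean TPM with merged exons though not in library 2 or by the principal transcript, was at 20.5 and 23.3 CPM, and Clec9a had 9 and 10 reads. These lectins are expressed by neutrophils and monocytes too, and what those cells added was not tested.

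Further genes of the disease-associated state did not move in one direction. Of 5 genes of the Trem2-independent step, Lyz2, the lysozyme gene of myeloid cells including neutrophils, was at 2608 and 11689 CPM. Lyz2 alone passed 2-fold, where 31.7% of all counted genes did. Ctsd, which encodes cathepsin D, was at 9715 and 7535 CPM. It shares 808 exon bases on the same strand with Gm49369, at 0 in both libraries, so reads from those bases would be given to neither gene. The list had a median log2 ratio of 0.13, and of -0.18 with microglial markers as library size. Of 8 genes of the Trem2-dependent step 1 was over 2-fold higher and 4 lower, where 5.74% and 25.9% of all counted genes were. The chemokine gene Ccl6, at 262 and 576 CPM, was higher, and Axl, Csf1, Itgax and Timp2 were lower, the last at 782 and 104 CPM. The median of that list was -0.91, and -0.24 after the adjustment for GC content and length. After it 3 of the 8 were still over 2-fold lower, Csf1, Itgax and Timp2, where 12.7% of all counted genes were. Ccl6, at an adjusted log2 ratio of 0.99, no longer passed. Cd68, a lysosomal protein of phagocytes, was at 1535 and 1567 CPM. Itgax encodes CD11c, against which the cells were gated, and was at 14.2 and 3.94 CPM.

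Homeostatic genes, which fall when the disease-associated state arises, were abundant in both libraries. Among the 10 genes of this list, Tmem119 was at 7057 and 6229 CPM. The median log2 ratio was 0.20, and -0.12 with microglial markers as library size. The transcription factor gene Sall1 was the single gene over 2-fold apart, at 337 and 146 CPM, where 31.7% of all counted genes were. After the adjustment for GC content and length Sall1 was no longer so, while Olfml3 passed 2-fold with an adjusted log2 ratio of 1.45.

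Partners of Apoe and Lpl were mostly far scarcer than Apoe. Of 15 genes 12 were counted, with a median log2 ratio of -0.29, against -0.26 over all counted genes. Over 2-fold, 2 were higher and 4 lower in library 2, where 5.74% and 25.9% of all counted genes were. Clu, which encodes the apolipoprotein clusterin, was at 4.15 and 38.0 CPM, and Apoc1 at 0.556 and 1.12 CPM. Clu is strongly expressed in choroid plexus epithelium and astrocytes, and the choroid plexus markers were higher in the same library. Their part in the Clu level was not tested. The receptor gene Lrp1, at 1034 and 170 CPM, and the lipid exporter genes Abca1 and Abcg1, at 273 and 129.6 CPM and at 363 and 149 CPM, were over 2-fold lower in library 2. None of the list was over 2-fold lower after the adjustment for GC content and length, where 12.7% of all counted genes were. Apoc2, an activator of the lipase, and Gpihbp1, its anchor on capillaries, were listed with 0 reads in both libraries, and Vldlr had 6 and 16 reads. Apoc2 shares 646 exon bases on the same strand with Gm44805, also at 0, so reads from those bases would be given to neither gene and its 0 does not show absence. The quotient of Lpl to Apoe was 0.00233 and 0.00166 in TPM by merged exons and 0.00391 and 0.00278 by the principal transcript.

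The remaining partners were taken gene by gene. Among cathepsins and cystatins, none of 5 genes was over 2-fold apart and the median was 0.40. Cst3, which encodes cystatin C, was at 30902 and 43495 CPM, so that Cst7 reached 0.000846 and 0.000499 of it in TPM, and Ctsc, a cathepsin that cystatin F inhibits, was at 1653 and 1323 CPM. Among 7 receptors of osteopontin the median log2 ratio was -1.31, against -0.26 over all counted genes. Over 2-fold, 1 was higher and 4 lower in library 2, where 5.74% and 25.9% of all counted genes were. Cd44 was higher in library 2, at 30.1 and 71.8 CPM, Itgav, Itgb3, Itga4 and Itga9 were lower, and Itgb5 and Itgb1 had the highest TPM, at 418 and 227 CPM and at 429 and 247 CPM. After the adjustment for GC content and length Itgav was still over 2-fold lower and Cd44 still over 2-fold higher. Each was 1 of the 7, where 12.7% of all counted genes were lower and 9.7% higher.

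Cd9 was set beside other tetraspanins and their partners, whose median log2 ratio over 7 genes was -0.07 and turned to 0.18 with TMM. Cd81, the highest of them, was nearly even at 3821 and 3800 CPM, Cd53 was at 1319.8 and 1911 CPM, and Igsf8, a partner of Cd9, was over 2-fold lower at 146 and 44.7 CPM. The quotient of Cd9 to Cd81 in TPM by merged exons was 0.260 in library 1 and 0.513 in library 2, and it does not depend on library size. Among 4 genes of galectins and a ligand none was over 2-fold apart and the median was 0.10, or -0.22 with microglial markers as library size. Lgals9 was at 713 and 886 CPM and Lgals3bp at 419 and 338 CPM, and the quotient of Lgals3 to Lgals9 in TPM was 0.136 and 0.380.

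MiT/TFE factors, which activate lysosomal genes and Gpnmb, had a median log2 ratio of -0.84 over 4 genes, and of 0.04 after the adjustment for GC content and length. Tfe3 and Tfeb, the highest of them, were at 238 and 129 CPM and at 88.7 and 49.0 CPM, and Tfec, at 1.03 and 2.14 CPM, was over 2-fold higher in library 2. Gpnmb itself differed by 1.10-fold.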

How the data were processed

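The 2 libraries were made from sorted microglia with SMART-Seq HT cDNA and Nextera XT, and sequenced in paired reads. Per the labels and the methods text, reads were mapped by the authors with HISAT2 (GRCm38). HTSeq then gave the deposited raw counts, 1 value for each Ensembl gene and library, with no normalization. Their versions, annotation release and strand setting are not given in the sources used here. Both samples were grouped from their titles. File starts, which count from 0, were raised by 1, after which all 10 genes matched GENCODE M21 in start and end. Symbols were matched for 53620 of 53801 identifiers.

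CPM was the count divided by the total of its file. TPM used merged exons, or the longest or APPRIS principal transcript, with the longest where no principal one was annotated. With 1 group of 2 libraries no test was run: values are given per library with mean ± SD. The 95% Wilson intervals for CPM and exact binomial intervals for ratios cover counting error only. The SD is of 2 animals and mixes the spread between mice with that of library preparation. Library 2 has the smaller counting error. Ratios were recomputed with TMM (edgeR 4.0.16), DESeq2 1.42.0 size factors and other library sizes, and after subtracting the median within 10 by 10 bins of GC content and length, using only the GC bin when a cell held under 20 genes. The remaining software was R 4.3.3 and Python 3.11.15 with numpy 2.4.6, pandas 2.3.3, scipy 1.17.1 and matplotlib 3.10.9. The ratio code was tested on simulated data. The 10 genes and all lists were chosen with earlier results of these data known. Named beside the 10 were, from each list, the 2 genes of highest mean TPM, genes under 10 reads in a library and genes over 2-fold apart, and from each marker list the gene with most counts. No gene was named for a like pattern, since 2 libraries give 1 ratio per gene. Some genes that this rule selects are not reported here. Ly6g, Ly6c2, Fn1, Olfml3 and Treml2 lie outside the rule and were named after their values were seen.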

Additional observations from a re-analysis of the deposited data

How the results depend on the processing

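No paired analysis was possible because 1 group holds both samples. The planned settings were TMM, size factors of DESeq2, library sizes without mitochondrial transcripts, the adjustment for GC content and length, the longest transcript, thresholds of 1.5-fold and 3-fold, minima of 1 and 50 counts, lists without their top gene and each library alone. Totals without neutrophil markers, microglial markers as library size and the principal transcript were chosen after seeing the data. The median log2 ratio of the 10 genes, 0.24, was 0.50 with TMM, 0.52 with DESeq2, 0.51 with the adjustment, 0.33 without neutrophil markers and -0.072 with microglial markers. The last also turned Tyrobp and Gpnmb, both to -0.17. Apoe became 0.23 with TMM, 0.24 with DESeq2 and 0.056 without neutrophil markers, and Cst7 0.0076 with DESeq2. The count over 2-fold apart was 2 with TMM, DESeq2, the adjustment and without neutrophil markers, and 4 at 1.5-fold. Of list genes over 2-fold lower, 23 became 9 with the adjustment. Medians of the 13 lists that changed sign were those of lipid partners (0.019 adjusted), tetraspanins (0.18 TMM, 0.20 DESeq2, 0.28 adjusted, 0.014 without neutrophil markers), MiT/TFE factors (0.041 adjusted) and, with microglial markers, the Trem2-independent step (-0.18), homeostatic genes (-0.12) and galectins (-0.22). Without their top gene, the log2 ratios of dendritic (-0.077), platelet (-0.59) and astrocyte markers (0.21) changed sign, and that of monocyte markers was 0.84. Beyond each setting's own construction, the cause was not tested. Of 40 rescaled mean levels 39 moved by less than 1 SD. The TMM and DESeq2 library sizes have the same geometric mean as the totals, so a mean could hardly move. The SD was that of 2 values, and the count therefore says little about stability. Leaving out a library always gives the other's value and says nothing about stability.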
